A study of Homo sapiens with 6 samples.

Results

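The genes described here are the D cyclins CCND1, CCND2 and CCND3, their kinase partners CDK4 and CDK6, the INK4 inhibitors CDKN2A and CDKN2B, and the CDK4-binding protein SERTAD1. They were grouped by their known place in the cyclin D pathway, with earlier results of these data known, and they make up 8 of the 84 cell cycle genes of a human quantitative PCR (qPCR) array. RNA came from HMC-1.2 cells, a neoplastic human mast cell (MC) line whose growth receptor KIT carries the oncogenic changes D816V and V560G in every group. Cells were cultured for 24 h with vehicle (0.1% DMSO), with 5 µM of the sphingosine kinase 1 inhibitor SKI-178 (SPHK1-I) or with 50 µM of the sphingosine kinase 2 inhibitor ABC294640 (SPHK2-I). Each of the 3 groups had 2 samples. The sources used here do not say whether the 2 were separate cultures, and the p-values therefore speak only of the spread between these samples, which may be technical. All 6 samples came from a single line, and the array carries only cell cycle and housekeeping genes, so the mast cell identity could not be checked against markers.

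D cyclins are made when growth signals reach a cell in G1. They bind CDK4 or CDK6, and the active pairs phosphorylate the retinoblastoma protein, which then releases E2F factors to switch on genes for DNA replication. The INK4 proteins p16 (from CDKN2A) and p15 (from CDKN2B) bind CDK4 and CDK6 and keep D cyclins away from them, whereas SERTAD1 binds CDK4 and is known to make it less sensitive to p16. KIT signaling is the main growth signal of mast cells, and activating KIT changes of the kind carried by HMC-1.2 cells keep it on without its ligand.

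Levels were expressed as the amount of each mRNA relative to the mean of 4 reference genes (B2M, GAPDH, HPRT1 and RPLP0) in the same sample, in thousandths of that reference, which takes each PCR cycle as a doubling. Changes were log2 differences of that level, tested with limma over all 84 genes, and a gene was called when its Benjamini-Hochberg adjusted p was below 0.05. Since the lysates were bulk samples, fewer cells with an mRNA and less of it per cell cannot be told apart. The reverse transcription and PCR control wells were alike in all samples, with mean threshold cycles (Ct) of 24.1 to 24.4 and 21.4 to 21.7. SPHK1-I sample 2 stood apart. Its reference genes crossed the threshold at a mean Ct of 24.3, later than the 22.1 to 22.7 of the remaining samples, and Ct exceeded 30 for 37 of the 84 genes there, as opposed to 9 to 13 elsewhere. The 2 SPHK1-I samples spread more widely than the others, with a standard deviation of the duplicate difference across genes of 0.48 log2 units against 0.17 in vehicle and 0.13 with SPHK2-I. The changes of the 8 genes with SPHK1-I are given with and without that sample.

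The level of each gene in vehicle placed CCND3, CCND2 and CDK4 among the most abundant mRNAs of the array, and CDK6 close to the bottom. By mean level CCND3 ranked 3 of 84, CCND2 ranked 5 and CDK4 ranked 10, while SERTAD1 and CCND1 ranked 58 and 62, CDKN2A and CDKN2B ranked 72 and 74, and CDK6 ranked 82. The means in vehicle were 245 ± 10.6 thousandths of the reference for CCND3, 199 ± 19.8 for CCND2 and 137 ± 2.77 for CDK4 (SD, n = 2). Comparing genes in this way rests on equal amplification by the assays, which was not tested. CCND3, CCND2 and CDK4 followed in this order in both vehicle samples, but SERTAD1 (17.2 ± 0.907) and CCND1 (15.9 ± 1.81) changed places between them. CDKN2A (5.32 ± 0.164) and CDKN2B (5.14 ± 0.247) also changed places. CDK6, at 0.906 ± 0.0322, was the lowest of the 8 genes in all 6 samples, with Ct values between 30.56 and 32.67, in the range where qPCR is least precise.

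**Figure D1:**
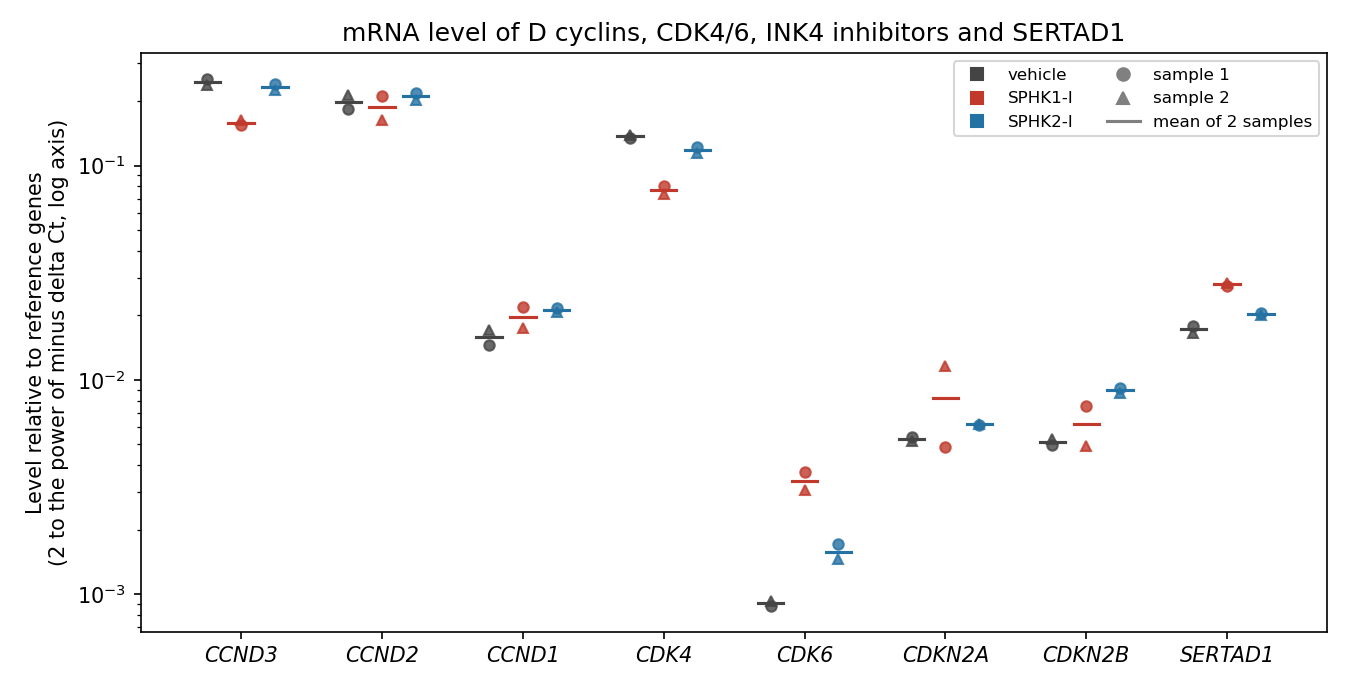
mRNA level of each of the 8 genes relative to the reference genes (log axis) in the 2 samples of each group, with the mean as a bar. CDK6 is the lowest gene in every sample and lies higher with either inhibitor, CDK4 and CCND3 lie lower in both SPHK1-I samples, and the SPHK1-I samples of CDKN2A are far apart.

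In the samples treated with SPHK1-I, the pair of D cyclin kinases moved in opposite directions. CDK6 mRNA rose 3.72-fold, the largest change of the 84 genes in that comparison, and CDK4 mRNA was 1.78-fold lower. CCND3 mRNA fell 1.55-fold, and SERTAD1 mRNA rose 1.62-fold. These 4 of 8 genes were called, 2 higher and 2 lower, where 35.7% of all genes were called, 4.76% as higher and 31.0% as lower. Both SPHK1-I samples lay beyond both vehicle samples for 5 of the 8 genes (3 higher, 2 lower), as they did for 69.0% of all genes (11.9% higher, 57.1% lower). The median change was 0.27 log2 units for the 8 genes and −0.35 for all 84. Without SPHK1-I sample 2 a lone SPHK1-I sample remains, assumed to vary like the other groups. The size of each change there is given below. All 4 calls were lost without vehicle sample 1 or vehicle sample 2, as was every other call on the array. When either SPHK2-I sample was left out, CCND3 and SERTAD1 lost their calls, although those samples lend only their spread to this comparison.

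CDK6, the less abundant kinase, measured 0.884 and 0.929 thousandths of the reference in the vehicle samples and 3.70 and 3.08 in the SPHK1-I samples. Both treated samples were above both vehicle samples by more than the duplicates of either group differed. The log2 change was 1.90 (SE 0.17, 95% confidence interval 1.49 to 2.31, adjusted p = 0.000745, limma). Without SPHK1-I sample 2 the change was 2.03, and over all references tried it ran from 1.29 with B2M alone (adjusted p = 1.59e-06, limma) to 2.25 with HPRT1 alone. Without vehicle sample 1 or vehicle sample 2 it was 1.86 (adjusted p = 0.0626, limma) and 1.93 (adjusted p = 0.0529).

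CDK4, the major D cyclin kinase of these cells by mRNA, measured 135 and 139 in vehicle and 80.4 and 74.0 with SPHK1-I. The groups did not overlap, and the duplicates lay close together in each. Its level fell by 0.83 on the log2 scale (SE 0.15, 95% confidence interval −1.19 to −0.47, adjusted p = 0.00729, limma), and by 0.77 without SPHK1-I sample 2. Without vehicle sample 1 or vehicle sample 2 the adjusted p was 0.0911 and 0.116. The call was also lost with any of ACTB (change −0.54), GAPDH (−0.54), HPRT1 (−0.48) or RPLP0 (−0.87) alone as the reference.

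The promoters of both kinases are shown for description only, and no link from sequence to the mRNA changes was tested. The sequences are the 250 bases before a RefSeq transcription start on the gene's own strand (GRCh38.p14, minus strand of both chromosomes), printed 5′ to 3′, with the E-box CACGTG in capitals. CACGTG is a palindromic site of several basic helix-loop-helix factors that act on growth genes, and reads alike on both strands. Only this form of the E-box was searched for, and other forms are not marked or counted. CDK6 has 2 annotated starts, and which of them the assay follows was not tested.
CDK4, chr12:57752311-57752560: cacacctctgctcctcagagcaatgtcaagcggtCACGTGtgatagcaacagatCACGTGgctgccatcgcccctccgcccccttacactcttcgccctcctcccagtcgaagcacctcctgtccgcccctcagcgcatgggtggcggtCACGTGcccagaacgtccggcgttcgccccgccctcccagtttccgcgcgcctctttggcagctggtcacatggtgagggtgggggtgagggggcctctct
CDK6 outer start, chr7:92836574-92836823: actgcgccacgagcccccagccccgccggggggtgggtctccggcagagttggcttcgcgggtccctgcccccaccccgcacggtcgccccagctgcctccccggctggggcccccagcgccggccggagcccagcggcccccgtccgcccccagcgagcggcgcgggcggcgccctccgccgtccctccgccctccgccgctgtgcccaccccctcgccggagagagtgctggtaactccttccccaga
CDK6 inner start, chr7:92833960-92834209: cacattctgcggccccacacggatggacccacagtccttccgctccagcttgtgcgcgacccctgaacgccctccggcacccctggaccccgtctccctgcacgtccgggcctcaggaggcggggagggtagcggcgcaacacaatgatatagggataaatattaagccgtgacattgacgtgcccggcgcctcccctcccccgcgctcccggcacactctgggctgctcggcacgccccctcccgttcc
The CDK4 window holds 3 CACGTG sites, beginning 216, 196 and 101 bases before the start. Neither CDK6 window shown holds a CACGTG site, although the 50 bases after the outer start, which are not printed, hold 1. Counting 250 bases before and 50 after each start, 2548 of 35116 annotated windows (7.26%) hold at least 1 CACGTG site and 33 (0.094%) hold at least 3. Windows were at hand for 6 of the 8 genes, 10 in all, and the 2 with a CACGTG site were those of CDK4 and of the outer CDK6 start. The windows of CCND3, which like CDK4 was lower with SPHK1-I, hold no CACGTG site. A match is a description of the letters and was not set against binding of any factor.

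Among the D cyclins, the fall with SPHK1-I was seen for CCND3. This cyclin, prominent in blood cells, measured 253 and 238 in vehicle and 155 and 163 with SPHK1-I, with no overlap between the groups. It fell by 0.63 on the log2 scale (SE 0.15, 95% confidence interval −0.98 to −0.27, adjusted p = 0.0166, limma), and by 0.66 without SPHK1-I sample 2. The call was lost without vehicle sample 1 (adjusted p = 0.130), vehicle sample 2 (0.134) or either SPHK2-I sample (0.0567 each), and with the median of all genes as the reference (change −0.43, adjusted p = 0.0608). It was also lost with ACTB (−0.33, adjusted p = 0.294), GAPDH (−0.33, 0.144), HPRT1 (−0.28, 0.208) or RPLP0 (−0.66, 0.150) alone and with the reference genes other than B2M (−0.42, 0.104), whereas B2M alone gave −1.24 (adjusted p = 3.10e-06). In all, the call was made under 10 of 23 alternatives. That count is not a rate, since some alternatives give the same fit, an unadjusted p or a lone SPHK1-I sample.

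CCND2 showed no call with SPHK1-I, and its samples overlapped those of vehicle. It measured 185 and 213 in vehicle and 212 and 164 with SPHK1-I, a log2 change of −0.09 with a 95% confidence interval of −0.53 to 0.35 (adjusted p = 0.729, limma), and 0.099 without SPHK1-I sample 2. With B2M alone as the reference it was −0.70 and passed (adjusted p = 0.00334). CCND1, the least abundant D cyclin here, measured 14.6 and 17.2 in vehicle and 21.8 and 17.4 with SPHK1-I. Both treated samples were above both vehicle samples, the lower of them only just, and the log2 change of 0.30 (95% confidence interval −0.13 to 0.72, adjusted p = 0.234, limma) was not called. The change was 0.46 without SPHK1-I sample 2. It passed with ACTB (0.59, adjusted p = 0.0265, limma) or HPRT1 (0.65, adjusted p = 0.0317) alone as the reference.

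The INK4 genes gave no call with SPHK1-I, and their SPHK1-I duplicates were the least alike of the 8 genes. CDKN2A measured 5.44 and 5.21 in vehicle and 4.86 and 11.7 with SPHK1-I. One treated sample was below both vehicle samples and the other was above them. The SPHK1-I duplicates of CDKN2A differed by 1.26 log2 units, the second largest such gap of the 84 genes, and its log2 change of 0.50 had a 95% confidence interval of −0.35 to 1.35 (adjusted p = 0.303, limma). Without SPHK1-I sample 2 the change was −0.13, and without SPHK1-I sample 1 it was 1.13. CDKN2A also encodes ARF, a protein from another reading frame that acts outside the cyclin D pathway, and the sources used here do not say where in the gene the assay lies.

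CDKN2B measured 4.97 and 5.32 in vehicle and 7.53 and 4.89 with SPHK1-I, so that the treated samples lay on either side of vehicle. The log2 change was 0.24 with a 95% confidence interval of −0.28 to 0.76 (adjusted p = 0.406, limma). It was −0.07 without SPHK1-I sample 1 and 0.55 without SPHK1-I sample 2, and 0.53 (adjusted p = 0.0270, limma) with ACTB alone as the reference. The gene neighbors CDKN2A on chromosome 9, and the SPHK1-I sample that was high for one of them was low for the other.

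SERTAD1 measured 17.9 and 16.6 in vehicle and 27.4 and 28.4 with SPHK1-I. Both treated samples were far above both vehicle samples, and the SPHK1-I duplicates of this gene were among the most alike on the array. The log2 change was 0.70 (SE 0.15, 95% confidence interval 0.34 to 1.05, adjusted p = 0.0128, limma), and 0.67 without SPHK1-I sample 2. The call was lost without vehicle sample 1 (adjusted p = 0.0911), vehicle sample 2 (0.134) or either SPHK2-I sample (0.0556 each). With B2M alone as the reference, a gene that was itself 0.61 higher with SPHK1-I, the change was 0.09 (adjusted p = 0.692), and with RPLP0 alone it was 0.66 (adjusted p = 0.150).

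With SPHK2-I, CDK6 and CDKN2B were each 1.74-fold higher than in vehicle, and no other of the 8 genes was called. The 2 called genes were both higher, where 28.6% of all genes were called, 4.76% as higher and 23.8% as lower. The samples of the groups did not overlap for 6 of the 8 genes (5 higher, 1 lower) and for 85.7% of all genes (25.0% higher, 60.7% lower). The median change was 0.23 log2 units for the 8 genes and −0.25 for all 84. Both inhibitors were set against the same vehicle samples, so their changes share that error. When any one of the vehicle or SPHK2-I samples was left out, 0 of the 8 genes and 0 of the 84 passed.

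CDK6 measured 1.70 and 1.45 thousandths of the reference with SPHK2-I, above the 0.884 and 0.929 of vehicle and below both SPHK1-I samples. The log2 change was 0.80 (SE 0.17, 95% confidence interval 0.39 to 1.20, adjusted p = 0.0116, limma). The adjusted p was 0.143 and 0.121 without SPHK2-I samples 1 and 2 and 0.128 and 0.126 without vehicle samples 1 and 2. With B2M or RPLP0 alone as the reference the change was 0.37 (adjusted p = 0.118) and 0.55 (adjusted p = 0.288).

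CDKN2B, the INK4 gene that in epithelial cells is known as a target of transforming growth factor beta, measured 9.19 and 8.71 with SPHK2-I against 4.97 and 5.32 in vehicle. Both SPHK2-I samples were above all 4 other samples. The log2 change was 0.80 (SE 0.22, 95% confidence interval 0.28 to 1.32, adjusted p = 0.0337, limma). The adjusted p was 0.196 and 0.185 without SPHK2-I samples 1 and 2 and 0.211 and 0.207 without vehicle samples 1 and 2. The call was also lost with B2M alone (change 0.38, adjusted p = 0.118) and RPLP0 alone (0.55, 0.342) as the reference, and when Ct values were limited to 30 (0.80, 0.239). CDKN2A measured 6.15 and 6.23, a little above both vehicle samples, with a log2 change of 0.22 that was not called (95% confidence interval −0.63 to 1.06, adjusted p = 0.659, limma). The wide interval carries the spread of the SPHK1-I duplicates, since all groups share a single estimate of the error.

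CDK4 and the D cyclins gave no call with SPHK2-I. CDK4 measured 122 and 115, below both vehicle samples, with a log2 change of −0.21 (95% confidence interval −0.57 to 0.14, adjusted p = 0.349, limma). CCND3 measured 240 and 225 and overlapped vehicle, with a change of −0.08 (95% confidence interval −0.43 to 0.28, adjusted p = 0.716). The sign of either change turned with the reference, since CDK4 was 0.08 and CCND3 was 0.22 higher relative to the median of all genes, while with B2M alone both fell past the threshold (−0.63, adjusted p = 0.00881, and −0.50, adjusted p = 0.0390). CCND2 measured 219 and 202, again overlapping vehicle, with a change of 0.09 (95% confidence interval −0.35 to 0.52, adjusted p = 0.731) that passed with ACTB (0.64, adjusted p = 0.0119) or HPRT1 (0.60, adjusted p = 0.0259) alone. CCND1 measured 21.7 and 20.7, above both vehicle samples, with a change of 0.42 (95% confidence interval −0.0016 to 0.85, adjusted p = 0.119). It passed without SPHK1-I sample 1 or SPHK1-I sample 2 (adjusted p = 0.000936 in each, limma), when 55 of all 84 genes passed. It also passed with ACTB (0.97, adjusted p = 0.00363), HPRT1 (0.94, 0.00380) or GAPDH (0.58, 0.0447) alone, with all 5 housekeeping genes (0.53, 0.0318) and with the median gene (0.72, 0.0315), but was 0.0021 (0.992) with B2M alone. SERTAD1 measured 20.5 and 20.1, also above both vehicle samples, with a change of 0.23 (95% confidence interval −0.12 to 0.59, adjusted p = 0.307). It passed with ACTB (0.78, adjusted p = 0.0450) or HPRT1 (0.75, 0.00818) alone and with the median gene (0.53, 0.0334).

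**Figure D2:**
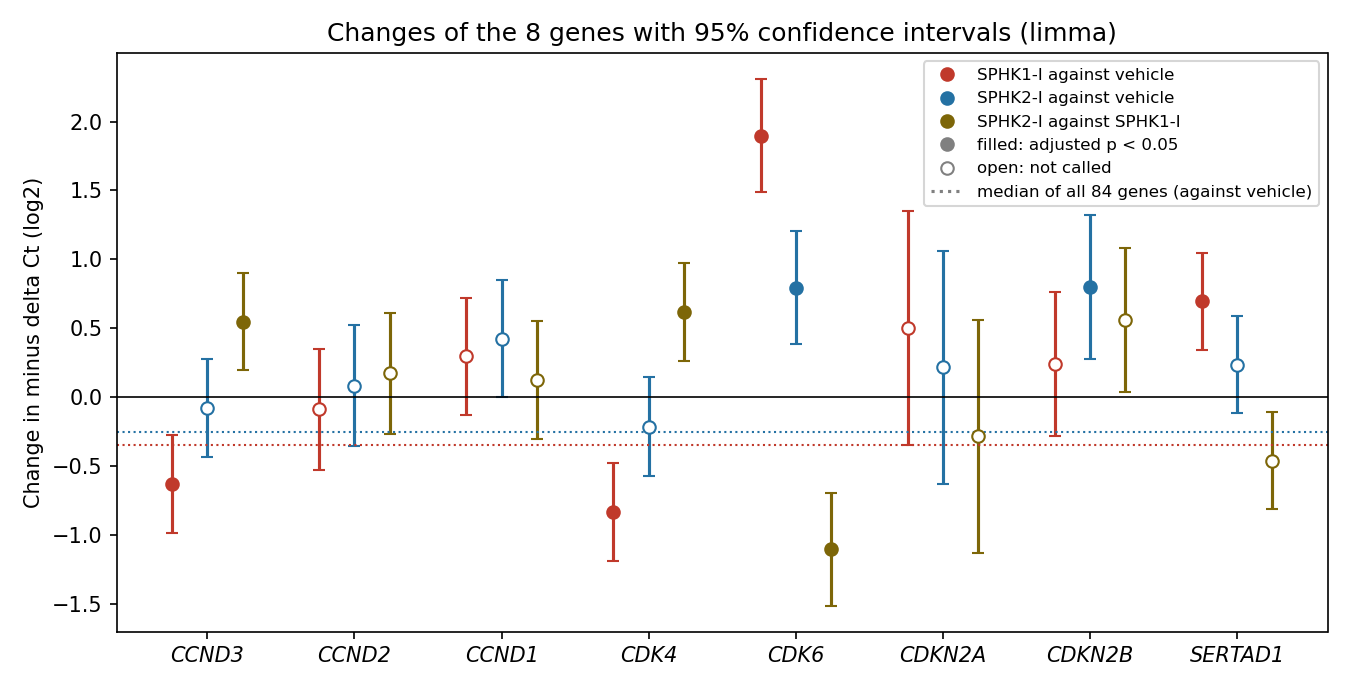
Log2 change of each of the 8 genes in the 3 comparisons, with 95% confidence intervals from limma, filled where the adjusted p was below 0.05, and dotted lines at the median of all 84 genes against vehicle. CDK6 is called in all 3 comparisons, CDK4 and CCND3 with SPHK1-I and between the inhibitors, SERTAD1 with SPHK1-I and CDKN2B with SPHK2-I.

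The inhibitors were also set against each other, at doses that differ (50 µM SPHK2-I against 5 µM SPHK1-I). After SPHK2-I, CDK6 was 2.15-fold lower than after SPHK1-I, and CDK4 and CCND3 were 1.54-fold and 1.46-fold higher. These 3 of 8 genes were called, where 31.0% of all genes were called, 15.5% in each direction. The log2 differences were −1.10 for CDK6 (SE 0.17, adjusted p = 0.00930, limma), 0.62 for CDK4 (SE 0.15, adjusted p = 0.0243) and 0.55 for CCND3 (SE 0.15, adjusted p = 0.0365). The samples of the inhibitors did not overlap for 5 of the 8 genes (3 higher and 2 lower after SPHK2-I), these 3 among them, and for 58.3% of all genes (34.5% higher, 23.8% lower). Without SPHK1-I sample 2 the differences were −1.24, 0.56 and 0.58. Without either vehicle sample, or without either SPHK2-I sample, none of these 3 differences passed, nor did any other on the array. With GAPDH alone as the reference CDK4 (0.48, adjusted p = 0.0634) and CCND3 (0.41, 0.110) did not pass, and with RPLP0 alone none of the 3 did (adjusted p = 0.0652 for CDK6, 0.534 for CDK4 and 0.584 for CCND3).

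The other 5 genes were not called between the inhibitors. SERTAD1 was below SPHK1-I in both SPHK2-I samples, with a log2 difference of −0.46 (95% confidence interval −0.81 to −0.11, adjusted p = 0.0532, limma). The difference ran from −0.49 to −0.44 with single samples left out, and it passed with GAPDH alone (−0.60, 0.0251). CDKN2B differed by 0.56 (0.04 to 1.08, adjusted p = 0.103, limma), and by 0.25 to 0.87 with single samples left out. It passed with ACTB (0.82, 0.00421), B2M (0.75, 0.00601), HPRT1 (0.73, 0.0144) or all 5 housekeeping genes (0.61, 0.0402) as the reference. CDKN2A differed by −0.28 (−1.13 to 0.56, adjusted p = 0.583, limma), but by −0.91 without SPHK1-I sample 1 and by 0.35 without SPHK1-I sample 2. CCND1 differed by 0.13 (−0.30 to 0.55, adjusted p = 0.614) and CCND2 by 0.17 (−0.26 to 0.61, adjusted p = 0.519). The CCND2 difference ran from −0.014 to 0.36 with single samples left out, and it passed with ACTB alone (0.43, adjusted p = 0.0319, limma).

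The choice of reference sets every change above, and ratios of 2 genes in a sample do not depend on it. Of the housekeeping genes, B2M was 0.61 and 0.42 log2 units higher with SPHK1-I and SPHK2-I, HPRT1 changed by −0.35 and −0.52, ACTB by −0.29 and −0.55, GAPDH by −0.29 and −0.15 and RPLP0 by 0.04 and 0.25.

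**Figure D3:**
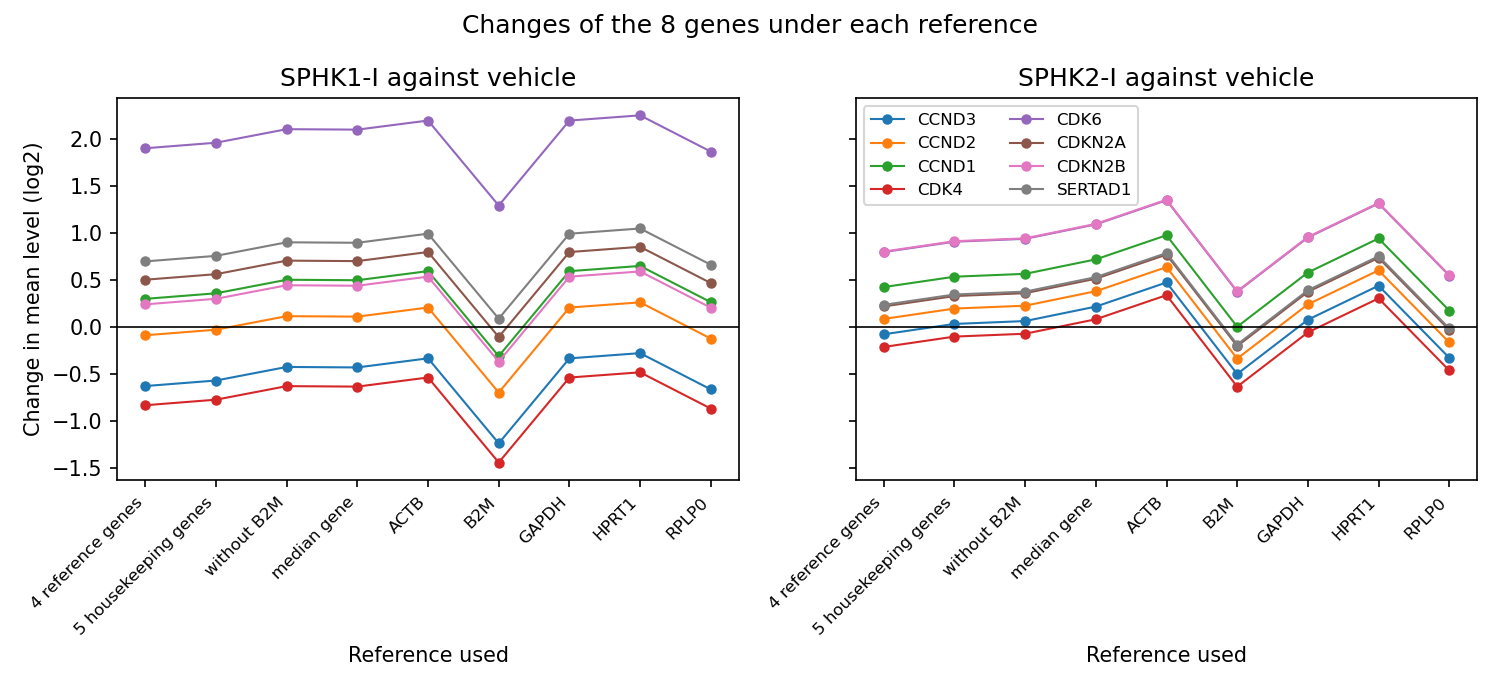
Log2 change of each of the 8 genes against vehicle under each choice of reference (horizontal axis), with SPHK1-I (left) and SPHK2-I (right). The lines run in parallel because a reference shifts all genes alike, which fixes the order of the genes, and with SPHK2-I the CDK6 line is hidden beneath that of CDKN2B.

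The balance of the kinases shifted toward CDK6 with both inhibitors. CDK4 exceeded CDK6 153-fold and 149.8-fold in the vehicle samples, 21.7-fold and 24.0-fold with SPHK1-I, and 71.5-fold and 79.3-fold with SPHK2-I. The 3 groups did not overlap, and the ratio of CDK6 to CDK4 rose 6.63-fold under SPHK1-I treatment and 2.01-fold under SPHK2-I. CDK6 still made up a small part of the summed kinase mRNA, 0.649% and 0.663% in vehicle, 4.40% and 3.99% in SPHK1-I samples and 1.38% and 1.25% in SPHK2-I samples. With 2 samples against 2, the exact two-sided permutation test gave p = 0.333, the smallest it can give. Leaving out any sample kept the log2 change of this ratio between 2.66 and 2.80 with SPHK1-I and between 0.93 and 1.08 with SPHK2-I.

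The D cyclin pool came mostly from CCND3 and CCND2 in every sample, with a small part from CCND1. CCND3 made up 55.9% and 50.9% of the summed D cyclin mRNA in vehicle, 39.8% and 47.3% in SPHK1-I samples and 49.9% and 50.3% in SPHK2-I samples. CCND2 took 40.8% and 45.5% in vehicle, 54.6% and 47.6% in SPHK1-I samples and 45.6% and 45.1% in SPHK2-I samples. CCND2 was thus the most abundant D cyclin in both SPHK1-I samples, narrowly in the second, whereas CCND3 led in the other 4 samples. The share of CCND1 was 3.23% and 3.67% in vehicle, 5.60% and 5.06% in SPHK1-I samples and 4.52% and 4.63% in SPHK2-I samples, with no overlap among the groups (exact two-sided permutation p = 0.333 in each comparison, the smallest possible).

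**Figure D4:**
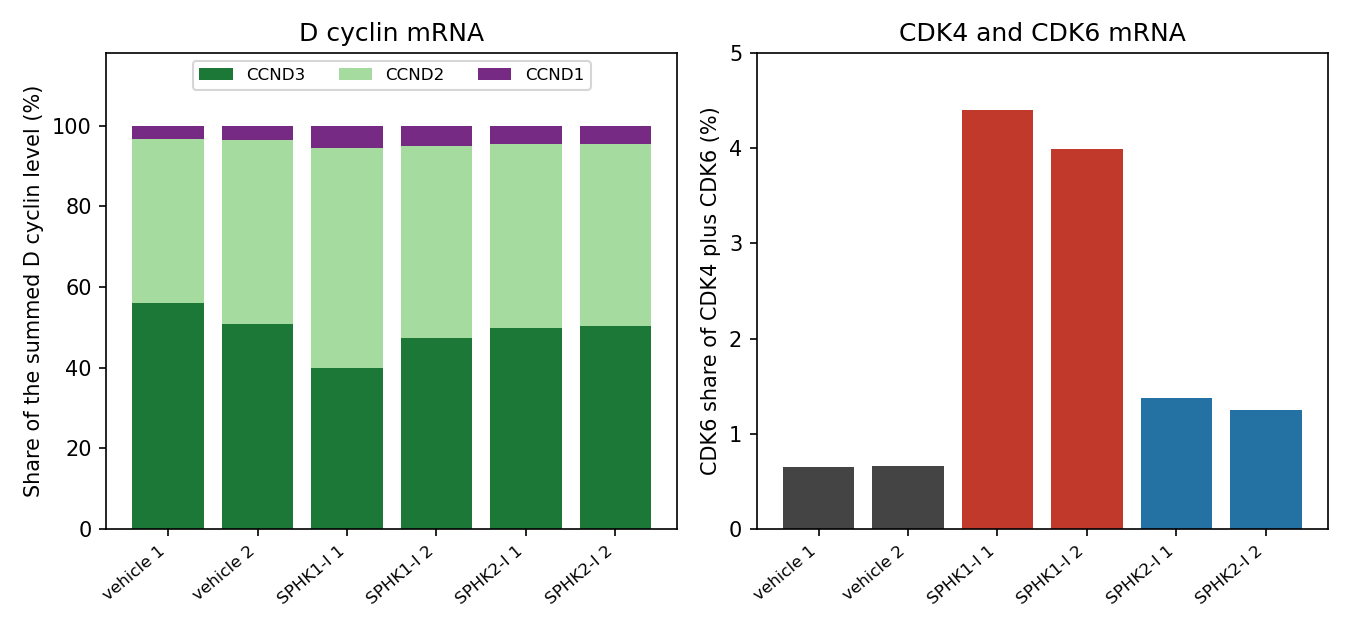
Share of each D cyclin in the summed D cyclin level (left, percent) and share of CDK6 in the summed CDK4 and CDK6 level (right, percent) in each of the 6 samples. CDK6 rises from under 1% in both vehicle samples to 4.40% and 3.99% with SPHK1-I, and CCND2 is the largest D cyclin share in the SPHK1-I samples.

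Ratios that set the D cyclins and SERTAD1 against the kinases placed SPHK2-I between vehicle and SPHK1-I. D cyclin mRNA exceeded CDK4 and CDK6 mRNA together 3.32-fold and 3.34-fold in vehicle, 4.63-fold and 4.46-fold with SPHK1-I and 3.88-fold and 3.84-fold with SPHK2-I. CDK4 exceeded SERTAD1 7.57-fold and 8.39-fold in vehicle, 2.93-fold and 2.61-fold with SPHK1-I and 5.96-fold and 5.73-fold with SPHK2-I. In both ratios the 3 groups did not overlap (exact two-sided permutation p = 0.333 in each comparison, the smallest possible). CCND3 and CDK4, which were both lower with SPHK1-I, had a ratio of 1.87 and 1.71 in vehicle against 1.93 and 2.20 in SPHK1-I samples and 1.97 and 1.96 in SPHK2-I samples. This ratio was 1.15-fold higher with SPHK1-I and 1.10-fold higher with SPHK2-I. Neither group overlapped vehicle (exact two-sided permutation p = 0.333 for each, the smallest possible), but the separation was narrow. The vehicle ratio of 1.87 and the SPHK1-I ratio of 1.93 were closer than the duplicates of either of these groups. The ratio of CDKN2B to CDKN2A was 0.913 and 1.02 in vehicle and 1.49 and 1.40 with SPHK2-I, but 1.55 and 0.419 in the SPHK1-I samples, which span the values of both other groups.

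The other genes of the pathway were counted from lists of known roles, beside the 31.0% of all genes called lower with SPHK1-I, the 23.8% with SPHK2-I and the 4.76% called higher with either. Of 8 genes known to be driven by E2F at the entry to S phase, 7 were lower with SPHK1-I (CCNE1, CDC25A, CDC6, MCM2, MCM3, MCM4 and MCM5, median of the 8 −1.12 log2 units) and 3 with SPHK2-I (CCNA2, CDC25A and MCM4, median −0.48). Of 7 genes for pocket proteins, E2F and DP factors, 1 was lower with SPHK1-I (median −0.55) and 0 were called with SPHK2-I (median −0.29). None of the 3 genes of the CDK-activating kinase, which phosphorylates CDK4 and CDK6 on their activation loop, was called with either inhibitor (medians 0.07 and −0.13). Of the CIP/KIP inhibitors, CDKN1A (p21) was higher with SPHK1-I, by 1.22 log2 units (SE 0.21, adjusted p = 0.00729, limma), and not called with SPHK2-I (0.08, adjusted p = 0.767), and CDKN1B was called with neither. Without SPHK1-I sample 2 the CDKN1A change was 0.92. The other cyclin-dependent kinases of the array gave 2 of 4 lower with each inhibitor, CDK1 (−1.10 and −1.13) and CDK2 (−0.91 and −0.82), and of the 6 cyclin-dependent kinases on the array only CDK6 was called as higher. Of 10 other cyclins, 2 were lower with SPHK1-I (CCNE1 and CCNF), and 4 were lower (CCNA2, CCNB1, CCNB2 and CCNF) and 1 higher (CCNG2, by 1.06, adjusted p = 0.0369) with SPHK2-I. The counts other than that of the E2F-driven genes with SPHK1-I rest on 4 genes or fewer. No count was tested, and the lists were chosen with earlier results of these data known. No count is therefore read as set apart from the share of all genes. Leaving out SPHK1-I sample 2, a setting chosen after seeing the data, gave SPHK1-I medians of −0.86 for the E2F-driven genes and −0.24 for the pocket protein, E2F and DP genes. The medians there were −0.45 for the other kinases, −0.22 for the other cyclins and 0.10 for the CDK-activating kinase. A different reference adds the opposite of its own change to all of these medians. With ACTB or HPRT1 alone as the reference, the SPHK2-I medians of the E2F-driven, pocket protein, CDK-activating and other cyclin lists turn above 0. The SPHK2-I median of the other kinases turns with ACTB but not HPRT1, and that of the CDK-activating list turns with GAPDH too. The SPHK2-I median of the CIP/KIP inhibitors falls below 0 with B2M or RPLP0 alone, and the SPHK1-I median of the CDK-activating list with B2M alone.

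The genes whose levels followed the called genes most closely across the 6 samples were found among the 76 other genes of the array. For CCND3 and CDK4 they were the same pair, the replication licensing factors MCM5 (Pearson r = 0.985 and 0.980) and CDC6 (0.947 and 0.987). For CDK6 they were CDKN1A (0.856) and the stress gene GADD45A (0.845), and for SERTAD1 they were CDKN1A (0.931) and MNAT1 (0.841), a subunit of the CDK-activating kinase. For CDKN2B they were CCNG2 (0.891) and the ubiquitin-conjugating enzyme CDC34 (0.852). The 6 values of each pair share their samples and reference genes and fall into 3 groups, so each r is a description. Over the 5 samples without SPHK1-I sample 2, these r values lay between 0.786 (SERTAD1 and MNAT1) and 0.994 (CDK4 and CDC6).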

How the data were processed

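HMC-1.2 RNA (vehicle, SPHK1-I and SPHK2-I, 2 samples each) was reverse transcribed and measured by the authors on SYBR qPCR arrays that hold 84 genes of the cell cycle besides 5 housekeeping genes and 7 wells of controls. The deposited values used here are threshold cycles and delta Ct values, both on a log2 scale and averaged over wells in the manufacturer's online tool (version not given in the sources used here). The deposited delta Ct subtracts the mean of 4 housekeeping genes (RPLP0, HPRT1, GAPDH and B2M), as found from the values. Ct values stop at 35, and no well of the 8 genes reached it. The deposited linear levels, and the tables of fold changes, which are the authors' own comparisons, were not used. The number of arrays limits the precision.

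Minus delta Ct was fitted with limma 3.58.1 in R 4.3.3 (lmFit, eBayes, all 3 groups in a single model, 3 residual degrees of freedom) with Benjamini-Hochberg adjustment over 84 genes, a departure from the Student's t-test of the methods, which was run as an alternative. Levels are 2 to the power of minus delta Ct. Ratios and shares were compared with exact permutation tests. Named genes are the 8 genes, the housekeeping genes, members of the pathway lists that were called, and for each called gene its 2 nearest genes by Pearson r. The genes and lists were chosen with earlier results of these data known. Alternatives were other references, other Ct limits, left-out samples, replicate blocks, a fit of 2 groups only, and limma with trend and robust settings. Promoters came from RefSeq tables (GRCh38.p14). Plots were drawn with Python 3.11.15 and matplotlib 3.10.9. The file was checked for columns without a sample, and there were 0.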

Additional observations from a re-analysis of the deposited data

Results flagged for a closer look

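In 3 genes the effects of the inhibitors differed by a direct test of SPHK2-I against SPHK1-I, at doses that were not matched. CDK6 differed by −1.10 log2 units (adjusted p = 0.00930, limma), higher than vehicle with both inhibitors and more so with SPHK1-I in both samples. CDK4 differed by 0.62 (adjusted p = 0.0243) and CCND3 by 0.55 (adjusted p = 0.0365), and in both genes the SPHK1-I samples were the lowest of the 6. Without either vehicle sample or either SPHK2-I sample none of these 3 differences passed, with adjusted p between 0.0659 and 0.144 for CDK6, 0.0795 and 0.196 for CDK4 and 0.108 and 0.238 for CCND3.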

How the results depend on the processing

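With 2 samples a group the calls were fragile. CDK6 with both inhibitors, CDK4, CCND3 and SERTAD1 with SPHK1-I and CDKN2B with SPHK2-I kept their sign under every alternative that gave a value, and CDK6 had none with Ct limited to 30. For these genes the groups did not overlap, so leaving out a sample could not turn a sign. Replicate blocks, fits of 2 groups and other tests keep the change itself. Only other references or Ct limits could turn a sign. Of the 8 genes, 4, 2 and 3 were called with SPHK1-I, with SPHK2-I and between the inhibitors. With SPHK1-I the count was 2 with GAPDH alone or only 2 groups in the fit, 1 with RPLP0 alone, and 0 by the methods' t-test after adjustment on delta Ct or linear levels (4 unadjusted). With SPHK2-I it was 5 with ACTB or HPRT1 alone, 4 relative to the median gene, 0 with RPLP0 alone or Ct limited to 30, and by the methods' t-test 4 unadjusted, 0 adjusted, and 1 adjusted on linear levels. Between the inhibitors it was 5 with ACTB alone, and 0 with RPLP0 alone, only 2 groups in the fit, or the t-test adjusted on either scale (4 unadjusted). Leaving out each sample gave 0 to 6, 0 to 3 and 0 to 7. The cause of these shifts was not tested.

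Over all 84 genes, 30, 24 and 26 were called. With SPHK1-I the count was 70 with B2M, 8 with GAPDH, 14 with HPRT1 and 1 with RPLP0 alone, 15 with the median gene or Ct limited to 30, 13 without B2M or with only 2 groups, and 0 by the adjusted t-test on either scale (21 unadjusted). With SPHK2-I it was 57 with B2M alone, 55 with only 2 groups, and 1 by the adjusted t-test (41 unadjusted). Between the inhibitors it was 40 with ACTB and 3 with RPLP0 alone, 0 with only 2 groups, and 0 by the adjusted t-test (17 unadjusted). Leaving out a sample gave 0 to 64, 0 to 55 and 0 to 61.

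Deviations of same-numbered samples correlated at −0.258 (vehicle and SPHK1-I), −0.105 (vehicle and SPHK2-I) and −0.0415 (the inhibitors), none of them positive. The labels do not say whether same-numbered samples were paired. These values cannot decide it, because each group gives a single duplicate difference. With the replicate number as a block, 4, 2 and 1 of the 8 genes and 31, 26 and 14 of all genes passed. With the numbers crossed, a block chosen after seeing the data, 4 and 3 of the 8 and 33 and 54 of all genes passed against vehicle.

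Uncalled genes turned in sign as follows. With SPHK1-I, B2M alone gave −0.31 for CCND1, −0.11 for CDKN2A and −0.37 for CDKN2B, and CCND2 was 0.21 with ACTB or GAPDH, 0.26 with HPRT1 and 0.11 with the median gene or without B2M. With SPHK2-I, B2M gave −0.34 for CCND2, −0.20 for CDKN2A and −0.19 for SERTAD1, RPLP0 gave −0.16, −0.031 and −0.015 for the same genes, CDK4 was 0.34 with ACTB, 0.30 with HPRT1 and 0.081 with the median gene, and CCND3 was 0.47, 0.44 and 0.22 with these, 0.077 with GAPDH, 0.032 with 5 housekeeping genes and 0.062 without B2M. Between the inhibitors, CCND1 was −0.014 with GAPDH and −0.089 with RPLP0, CCND2 was −0.041 with RPLP0, and CDKN2B was −0.45 with Ct limited to 30. With single samples left out, CCND2 ranged from −0.28 to 0.099 with SPHK1-I, −0.017 to 0.19 with SPHK2-I and −0.014 to 0.36 between the inhibitors, CCND1 from −0.038 to 0.29 between them, CDKN2A from −0.13 to 1.13 with SPHK1-I and −0.91 to 0.35 between them, and CDKN2B from −0.072 to 0.55 with SPHK1-I. Of 541 values under alternatives, some of which give the same fit or an unadjusted p, 388 kept direction and side of the threshold, 35 turned, 39 passed anew and 79 no longer passed. Ct exceeded 30 in all CDK6 wells, and 2 samples a group limit the precision.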
